A study of Mus musculus with 8 samples.

Results

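Interferon-stimulated genes are the genes a cell switches on after it senses a type I interferon, and 32 of them were followed here in mouse CD4+ T cells given dimethyl succinate. The members were the rows of the deposited table whose gene name stood on a list of 32 interferon-stimulated genes from which the STAT and IRF transcription factors had been left out. All 32 were found among the 54532 genes listed, 1 row each, and all 32 passed the filter on low counts that left 13981 genes. RNA came from spleen CD4+ T cells of wild-type mice, as 4 libraries labelled vehicle and 4 labelled dimethyl succinate, the second group having had the compound for 3 days. Dimethyl succinate is a form of succinate that enters cells. The dose, the age, strain and number of the animals, and any stimulus shared by both groups are not given in the labels. No source says that each library had its own animal or culture. P-values therefore measure the spread among these samples and nothing wider, and that spread may be technical.

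Type I interferons bind a receptor made of IFNAR1 and IFNAR2, which activates the kinases JAK1 and TYK2. These kinases switch on a complex of transcription factors that binds the interferon-stimulated response element in promoters. The genes induced this way sense viral nucleic acid, degrade or trap viral RNA and proteins, or feed back on the pathway. T cells carry the receptor, and in them interferon signals are known to act on survival, expansion and helper differentiation. Some of these genes, the guanylate-binding proteins among them, are induced by interferon gamma as well.

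Total counts ran from 13407295 to 15738869 in the vehicle libraries and from 14663698 to 16688854 in the dimethyl succinate libraries. The cells carried T cell transcripts, with the 11 markers of CD4+ T cells summing to 2835 to 3625 CPM, counts scaled to a common library size, with vehicle and 3541 to 3704 with dimethyl succinate. Plasmacytoid dendritic cells, which make large amounts of type I interferon, had 7 markers on their list. These summed to 30.5 to 36.5 CPM with vehicle and 33.3 to 36.7 with dimethyl succinate. Their defining marker Siglech had 0 counts, Klk1 had 1 count in all libraries together, and Tcf4 and Pacsin1 made up most of the sum. The 12 markers of monocytes and macrophages summed to 9.32 to 12.8 and 11.4 to 14.8 CPM, with C1qc at 0 counts. Markers of B cells summed to 55.7 to 98.9 and 90.6 to 96.7 CPM, nearly all of it Ighm. In bulk samples fewer cells of a type and less RNA per cell cannot be told apart. Vehicle replicate 4 stood apart: mitochondrial genes took 0.252% of its counts and 1.16% to 1.48% of those in the other 7 libraries, and its CD4+ T cell marker sum of 2835 CPM was the lowest. Its B cell marker sum of 55.7 CPM was also the lowest, with 86.5 or more in the others, and its conventional dendritic cell marker sum of 36.6 CPM the highest, with 24.5 to 28.8 in the others. Counts of members, and the fold changes it moved most, are given with and without it.

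The interferons themselves were at or near 0. Of 18 genes for type I interferons, 16 had 0 counts in all 8 libraries, Ifnb1 and every listed Ifna gene among them. Zero counts in 121192348 allow a level of up to 0.0248 CPM over the libraries together, which covers counting error only. Ifnk had 12 counts and Ifnz 9 in the whole series. The receptor and its signalling chain were present in every library. Ifnar1 stood at 111 ± 14.6 CPM with vehicle and 115 ± 6.68 with dimethyl succinate, and Ifnar2 at 33.8 ± 2.66 and 38.0 ± 2.53 (SD, n = 4).

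No interferon-stimulated gene of the 32 passed the test between vehicle and dimethyl succinate, and most differed by little. By the quasi-likelihood test of edgeR, with Benjamini-Hochberg adjustment over all genes at 0.05, 0 members and 0% of all tested genes were called. At an unadjusted p below 0.05, 1 member was higher with dimethyl succinate, against 2.93% of all tested genes, and 0 were lower, against 2.83%. That 1 member of 32 was Oasl2. DESeq2 and limma-voom also called 0 members, and over all genes DESeq2 called 4 and limma-voom 0. Log2 fold changes lay above 0 for 12 members and below 0 for 20, and the median was -0.058, against -0.090 when vehicle replicate 4 was left out. Over all tested genes 49.6% lay above 0, and the median was -0.0011. A 2-fold change in either direction lay outside the 95% interval of 27 members, and a 1.5-fold change outside that of 21. The same held for 89.9% and 71.7% of all tested genes. The 5 members whose interval reached past 2-fold were Oasl1, Ifit3b, Mx2, Rsad2 and Ifi44, each with at most 48 counts in any library.

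**Figure D1:**
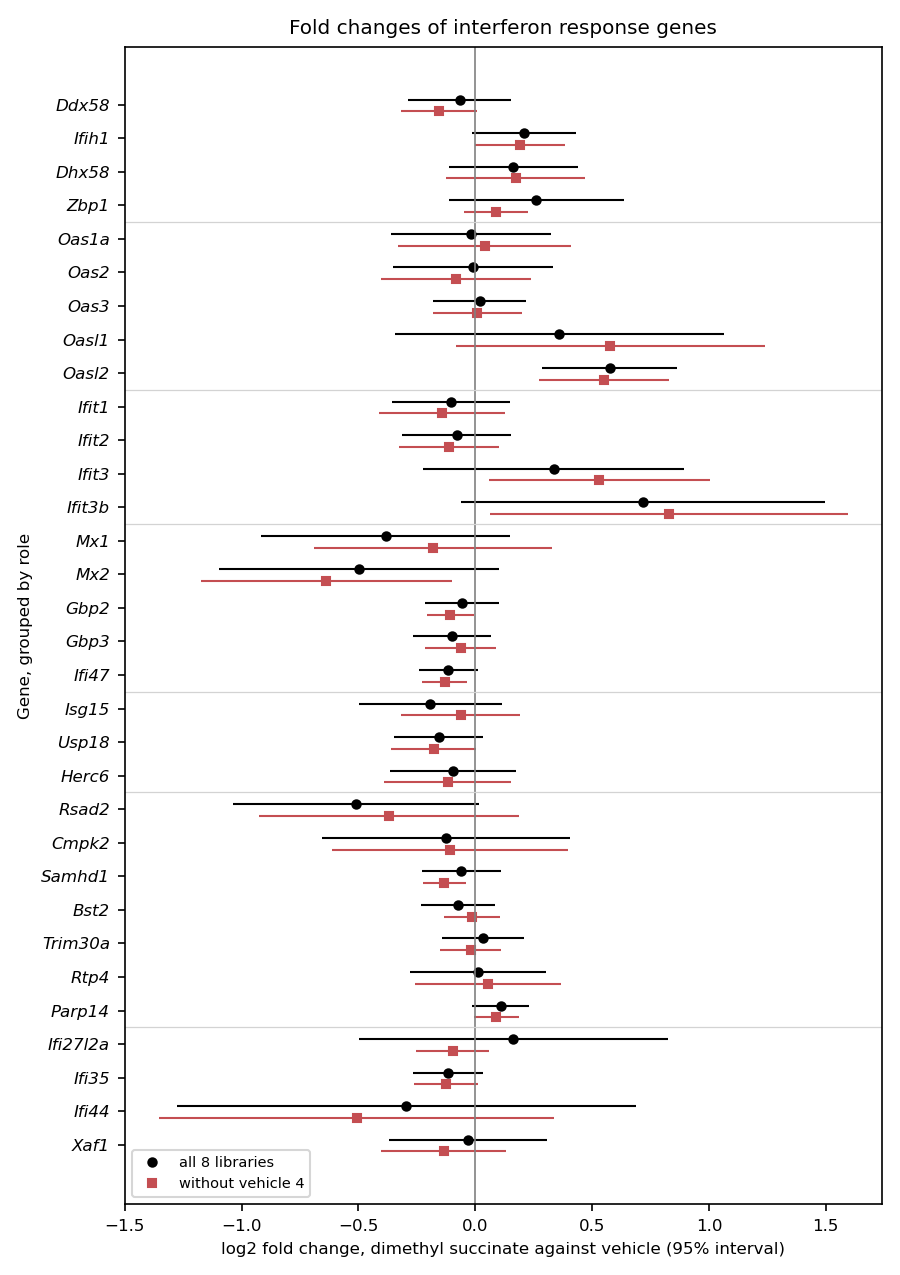
Log2 fold change of each of the 32 interferon-stimulated genes, dimethyl succinate against vehicle, with its 95% interval, from all 8 libraries (black circles) and without vehicle replicate 4 (red squares). Horizontal lines separate roles. Oasl2, at 0.58, is the only member whose black interval lies wholly to one side of 0.

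Levels per gene length spanned 3 orders of magnitude across the members. In the authors' FPKM, read density scaled by gene length and library size, the mean over 8 libraries was 242 for Gbp2 and 0.157 for Ifi44. The median over all tested genes was 6.06 FPKM, and 12 members lay above it and 20 below. The 5 highest were Gbp2, Ifi47, Bst2, Ifi27l2a and Samhd1, at 242, 136, 101, 69.6 and 53.5 FPKM. Gbp2, Ifi47 and Bst2 did not overlap in their ranges over libraries, so their order held in each. Ifi27l2a ran from 26.8 to 80.3 FPKM and overlapped Samhd1 through vehicle replicate 4 alone, since its other 7 libraries lay at 67.1 FPKM or more and Samhd1 reached 58.3 at most. Of the genes often used to read out a type I interferon response, Isg15 lay above that median at 14.5 FPKM. Below it lay Ifit1 at 2.94 FPKM, Oasl2 at 1.58, Mx1 at 0.662 and Rsad2 at 0.467. From Ifit2 in the thirteenth place to Oas2, each member overlapped the next, so their order is not resolved.

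**Figure D2:**
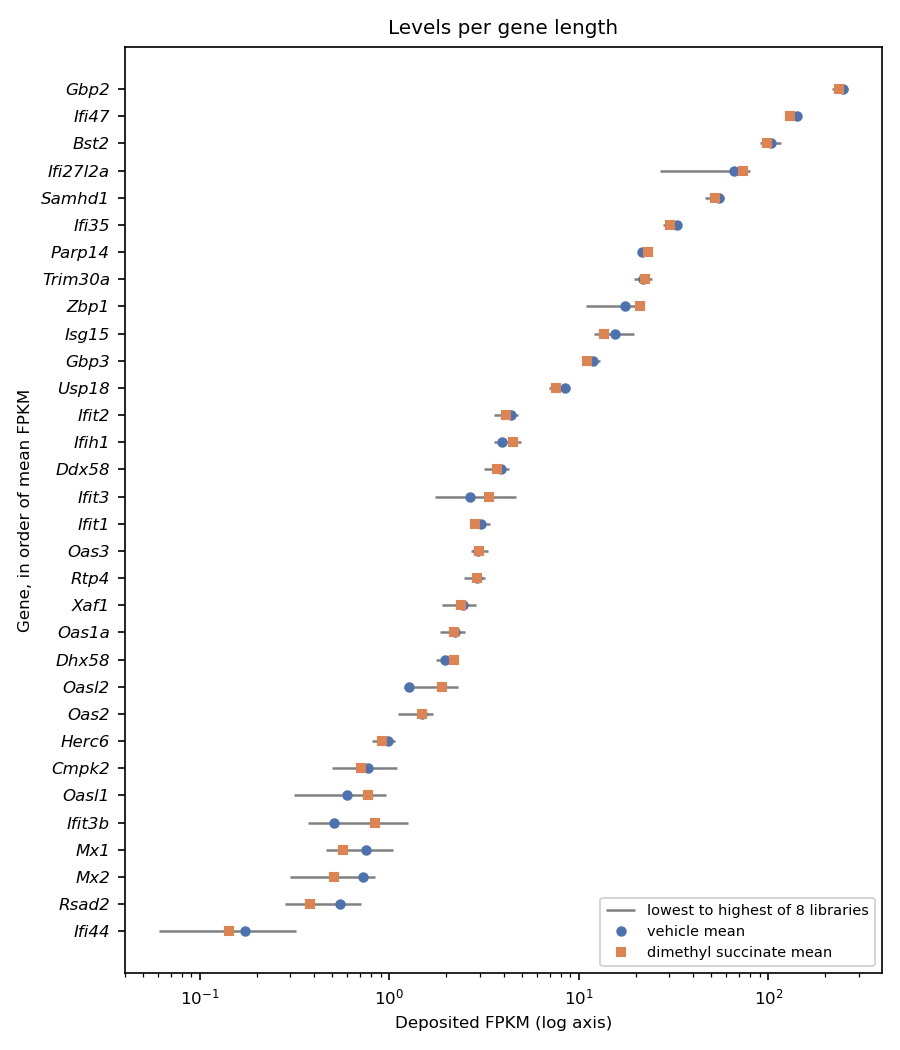
Deposited FPKM of the 32 members on a log axis, in order of the mean over 8 libraries. Grey lines run from the lowest to the highest library, circles are vehicle means and squares dimethyl succinate means. Gbp2 is highest at 242 FPKM and Ifi44 lowest at 0.157, and Ifi27l2a and Zbp1 have long lower tails.

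Among the oligoadenylate synthetase family, whose enzymes make the short RNA chains that activate the nuclease RNase L, Oasl2 stood apart. It lies on chromosome 5 from 114896936 to 114912234 on the plus strand (GRCm38, ENSMUSG00000029561). Its protein carries an oligoadenylate synthetase-like domain and ubiquitin-like repeats. Oasl2 stood at 8.05, 9.17, 7.63 and 7.72 CPM in vehicle replicates 1 to 4 and at 11.6, 14.7, 12.2 and 10.03 CPM in dimethyl succinate replicates 1 to 4. The groups did not overlap, and this rested on 102 to 246 counts per library. This is a log2 fold change of 0.58 ± 0.134 (SE), and its 95% interval reached from 0.29 to 0.87. For Oasl2 edgeR gave an unadjusted p of 0.000895 and a Benjamini-Hochberg adjusted p of 0.646. The exact two-sided permutation p of 0.0286 is the smallest that 4 against 4 can give. It follows from the lack of overlap and is not further support. Of all tested genes 2.5% were higher without overlap. Without vehicle replicate 4 the log2 fold change was 0.55 ± 0.134 and the edgeR adjusted p 0.0912. Over the alternatives the edgeR, DESeq2 or limma adjusted p ran from 0.0912 to 0.936. In the authors' deposited table Oasl2 had a log2 fold change of 0.57 and a p of 0.000271. The adjusted p entered there for Oasl2 is not read as a test result. It was larger than the 0.823 entered for Ifi47, whose p in that table was 0.0427. Only 0.138% of the 50-base windows in its transcripts occur in another gene's transcripts.

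Oasl1, its neighbour on the same strand of chromosome 5 from 114923240 to 114937915, encodes a related protein that lacks enzyme activity and restrains translation of Irf7. It stood at 2.19, 1.02, 0.823 and 2.23 CPM with vehicle and 2.53, 1.91, 2.08 and 1.53 with dimethyl succinate. Vehicle replicates 2 and 3 were low and the groups overlapped. For Oasl1 the log2 fold change was 0.36 ± 0.325 (SE) in all 8 libraries and 0.58 ± 0.322 once vehicle replicate 4 was left out. The classical synthetases lay close together in both groups. Oas1a, Oas2 and Oas3 lie together on the minus strand of chromosome 5, from 120730333, where Oas2 starts, to 120907521, where Oas1a ends. Oas1a stood at 4.22 ± 0.513 and 4.18 ± 0.417 CPM, Oas2 at 6.68 ± 0.797 and 6.65 ± 1.17, and Oas3 at 20.8 ± 0.969 and 21.1 ± 1.94 (SD, n = 4). Their log2 fold changes of -0.018, -0.0083 and 0.019 had intervals within a 1.5-fold change, and each changed sign when a library was left out. Of the Oas1a windows, 57.6% also occur in Oas1g, so its count is uncertain.

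The 250 bases before the RefSeq transcription start are printed for 4 members (GRCm38.p6, 5′ to 3′ on the strand of the gene). Oasl2 is shown as the member with the smallest p and Isg15 as a gene with several copies of the response element. Ifit3 and Ifit3b are shown as a pair alike in sequence. Their libraries varied together, but reads may match both genes, so their counts are not separate measurements. Capitals mark the core of the interferon-stimulated response element: GAAA, any 2 bases and GAAA again, or on the other strand TTTC, any 2 bases and TTTC.
Oasl2, chr5:114896684-114896933 on the plus strand: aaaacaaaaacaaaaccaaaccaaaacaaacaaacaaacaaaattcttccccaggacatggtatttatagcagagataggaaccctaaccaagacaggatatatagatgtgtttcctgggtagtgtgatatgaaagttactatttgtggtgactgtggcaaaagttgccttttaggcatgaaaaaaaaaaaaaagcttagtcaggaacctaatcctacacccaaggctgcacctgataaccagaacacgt
Ifit3, chr19:34583279-34583528 on the plus strand: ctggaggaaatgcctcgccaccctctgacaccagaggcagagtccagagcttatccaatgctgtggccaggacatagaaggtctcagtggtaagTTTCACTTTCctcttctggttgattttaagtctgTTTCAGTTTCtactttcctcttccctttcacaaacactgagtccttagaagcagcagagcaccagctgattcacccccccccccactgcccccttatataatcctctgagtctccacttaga
Ifit3b, chr19:34607707-34607956 on the plus strand: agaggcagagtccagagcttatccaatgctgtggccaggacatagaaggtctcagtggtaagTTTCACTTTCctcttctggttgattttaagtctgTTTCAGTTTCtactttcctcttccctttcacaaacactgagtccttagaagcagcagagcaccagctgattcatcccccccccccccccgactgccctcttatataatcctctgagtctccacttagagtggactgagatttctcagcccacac
Isg15, chr4:156200819-156201068 on the minus strand: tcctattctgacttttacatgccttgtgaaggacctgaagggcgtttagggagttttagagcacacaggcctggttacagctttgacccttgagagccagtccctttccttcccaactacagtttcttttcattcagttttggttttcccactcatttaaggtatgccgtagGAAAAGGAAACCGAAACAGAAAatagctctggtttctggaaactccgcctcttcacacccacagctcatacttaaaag
The Ifit3 and Ifit3b stretches share an identical run of 169 bases that holds both cores. The Isg15 stretch holds 3 overlapping cores. The letters of the core do not occur in the Oasl2 stretch.

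Of the 32 members, 23 matched a promoter window of 300 bases in the RefSeq table, which runs from 250 bases before the start to 50 after it. A core was found in 13 of these 23 genes, 56.5%, against 3.99% of the 27025 genes with such a window. More than 1 core was found in 8 genes: Oas1a, Ifit1, Ifit3, Ifit3b, Gbp3, Isg15, Bst2 and Trim30a. None was found in Oasl1, Oasl2, Ifit2, Ifi47, Herc6, Cmpk2, Samhd1, Ifi35, Ifi44 and Xaf1. The gamma-activated sequence, TTC, any 3 bases and GAA, which has the same fixed letters on both strands, was found in 5 of the 23 genes, 21.7%, against 9.55% of all. In Bst2 it overlaps a core. A match is a string of letters and was not measured as a bound site. Dhx58, Zbp1, Oas2, Mx1, Mx2, Usp18, Rtp4, Parp14 and Ifi27l2a were not matched.

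**Figure D3:**
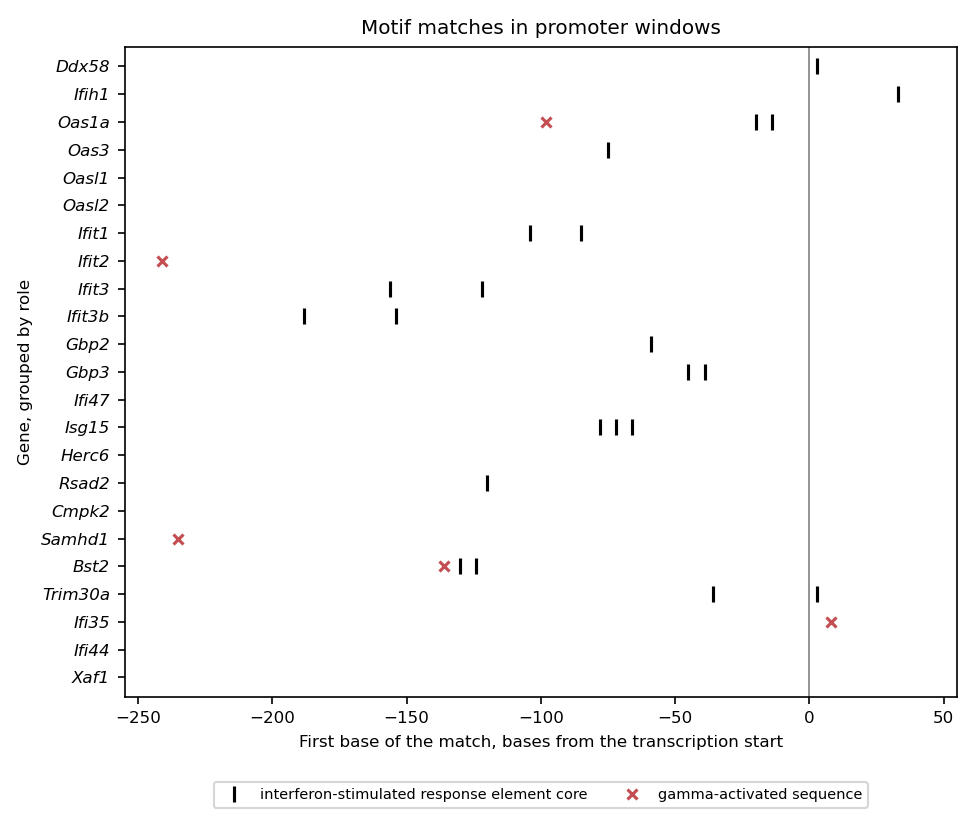
Position of the first base of each motif match, in bases from the RefSeq transcription start, for the 23 members with a promoter window. Black ticks are cores of the interferon-stimulated response element, found in 13 genes, and red crosses are gamma-activated sequences, found in 5.

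The IFIT genes, whose proteins bind foreign RNA ends and block their translation, formed an even pair and a variable pair. All 4 lie on the plus strand of chromosome 19, from 34550694, where Ifit2 starts, to 34650009, where Ifit1 ends. Ifit1 stood at 8.14 ± 0.696 CPM with vehicle and 7.58 ± 0.216 with dimethyl succinate, and Ifit2 at 17.3 ± 1.23 and 16.3 ± 2.003 (SD, n = 4). Their log2 fold changes were -0.11 ± 0.117 and -0.079 ± 0.108 (SE). Ifit3 stood at 4.94, 4.20, 3.07 and 6.47 CPM with vehicle and 8.20, 6.86, 4.47 and 4.15 with dimethyl succinate. Ifit3b, its copy nearby on chromosome 19, stood at 1.1998, 0.891, 0.748 and 1.252 CPM and at 2.25, 2.51, 0.979 and 1.02. In both genes dimethyl succinate replicates 1 and 2 were the highest of the 8 libraries, vehicle replicate 4 came next and vehicle replicate 3 was lowest. Dimethyl succinate replicates 3 and 4 lay within the vehicle range. For Ifit3 the log2 fold change was 0.34 ± 0.257 (SE) at an unadjusted edgeR p of 0.214, and for Ifit3b it was 0.72 ± 0.360 at 0.0681.

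The counts of both genes are uncertain, since 51.2% of the Ifit3 windows occur in Ifit3b and 44.5% of the Ifit3b windows in Ifit3. Splitting reads between them does not change their sum. Dropping shared reads, or counting them for both genes, would change it, and the counting tool is not given. The sum stood at 6.14, 5.09, 3.81 and 7.72 CPM with vehicle and 10.5, 9.37, 5.45 and 5.18 with dimethyl succinate. The 2 highest libraries were again dimethyl succinate replicates 1 and 2, and the groups overlapped. Without vehicle replicate 4 both genes passed an unadjusted p of 0.05, at log2 fold changes of 0.53 and 0.83 with edgeR adjusted p of 0.518 and 0.532. Other libraries moved them the other way. The log2 fold change of Ifit3 was 0.15 at an unadjusted p of 0.585 without dimethyl succinate replicate 1, and 0.18 without vehicle replicate 3. That of Ifit3b was 0.46 at 0.249 without dimethyl succinate replicate 2.

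**Figure D4:**
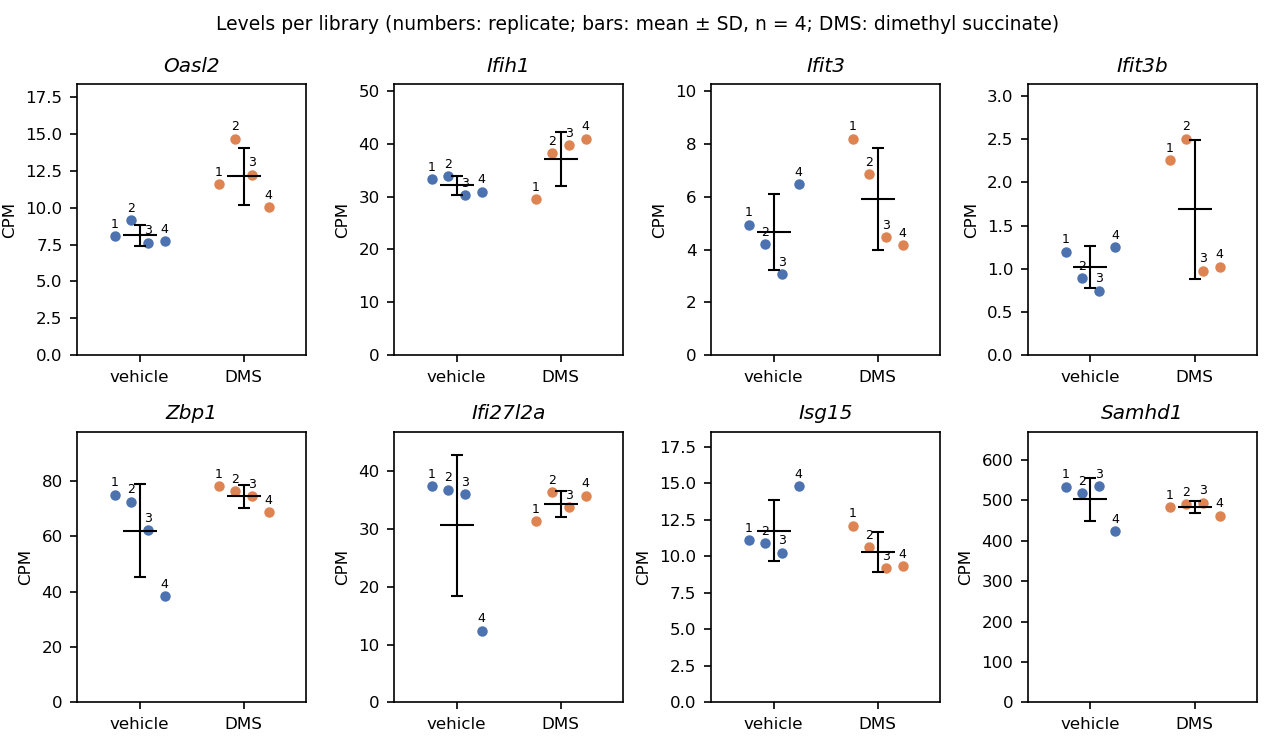
CPM of 8 members in each library, with replicate numbers, the mean and the SD of 4 libraries a group. Oasl2 is higher in all 4 dimethyl succinate libraries, from 10.03 to 14.7 CPM, than in any vehicle library. Ifit3 and Ifit3b are high in dimethyl succinate replicates 1 and 2, and vehicle replicate 4 lies low for Zbp1, Ifi27l2a and Samhd1.

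The sensors of viral nucleic acid had log2 fold changes in both directions. Ifih1, which encodes MDA5, a sensor of long double-stranded RNA, lies on chromosome 2 from 62595798 to 62646255 on the minus strand. Ifih1 stood at 33.3, 33.9, 30.3 and 31.0 CPM with vehicle and 29.5, 38.2, 39.8 and 41.0 with dimethyl succinate. Dimethyl succinate replicate 1 was the lowest of the 8 libraries and the other 3 lay above every vehicle library. The log2 fold change was 0.21 ± 0.103 (SE) at an unadjusted p of 0.063 in edgeR, and 0.19 at 0.0489 without vehicle replicate 4. Ddx58, which encodes RIG-I, a sensor of RNA ends, stood at 28.4, 30.2, 29.1 and 22.3 CPM and at 25.7, 26.1, 28.1 and 25.1. Vehicle replicate 4 was the lowest and the other vehicle libraries lay above every dimethyl succinate library, so that the log2 fold change was -0.067 with it and -0.16 without it. Dhx58, the third member of this helicase family and their regulator, stood at 6.44 ± 0.685 and 7.22 ± 0.356 CPM (SD, n = 4).

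Zbp1, a sensor of left-handed nucleic acid that triggers cell death, stood at 75.0, 72.5, 62.1 and 38.3 CPM with vehicle and 78.1, 76.1, 74.4 and 68.7 with dimethyl succinate. Its log2 fold change of 0.26 ± 0.169 (SE) was 0.088 ± 0.066 without vehicle replicate 4. Ifi27l2a, a small membrane protein gene, showed the same library still further off: it stood at 37.4, 36.7, 36.0 and 12.4 CPM with vehicle and 31.4, 36.3, 33.8 and 35.7 with dimethyl succinate. Its log2 fold change of 0.16 ± 0.291 became -0.097 ± 0.075 without that library. B2m, the light chain of MHC class I and itself interferon-inducible, moved with them, at 1179 CPM in vehicle replicate 4 and 1828 to 2200 in the other 7 libraries. For B2m the log2 fold change was 0.013 ± 0.163 (SE) with that library, and -0.16 ± 0.047 at an unadjusted edgeR p of 0.0024 without it. The low mitochondrial share and T cell marker sum of that library are given above, and their part in these values was not tested.

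The interferon-inducible GTPases all had log2 fold changes below 0, and none passed the test. Gbp2, a guanylate-binding protein that attacks the vacuoles of pathogens, was the most abundant member, at 623 ± 47.8 CPM with vehicle and 599 ± 33.2 with dimethyl succinate (SD, n = 4). Its log2 fold change was -0.057 ± 0.073 (SE), or -0.11 ± 0.049 without vehicle replicate 4. Gbp2 lies on chromosome 3 from 142620602 to 142638008 and Gbp3 from 142560026 to 142573209, both on the plus strand. Ifi47, an immunity-related GTPase, stood at 352, 358, 360 and 341 CPM and at 327, 344, 324 and 307. Only dimethyl succinate replicate 2 reached into the vehicle range, above vehicle replicate 4. The log2 fold change of Ifi47 was -0.12 ± 0.059 at an unadjusted p of 0.0701 in edgeR, and the exact two-sided permutation p was 0.0571. Of its exon bases, 4.49% are shared with Olfr56 on the same strand.

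Mx1 and Mx2, of a family of dynamin-like GTPases known to block viruses, were scarce, with 26 to 57 and 16 to 48 counts per library. Whether either gene made a working protein in these cells was not measured. Mx1 stood at 2.26, 2.29, 2.92 and 3.97 CPM with vehicle and 1.78, 2.09, 2.94 and 1.92 with dimethyl succinate. Mx2 stood at 3.03, 3.06, 2.62 and 1.81 CPM and at 1.09, 2.45, 2.32 and 1.53. Vehicle replicate 4 was the highest of all for Mx1 and the lowest vehicle library for Mx2, and both genes overlapped between the groups. Log2 fold changes were -0.38 ± 0.246 and -0.50 ± 0.277 (SE). Without that library they were -0.18 and -0.64, the second at an unadjusted edgeR p of 0.0217. Gbp3 stood at 39.1 ± 2.42 and 36.5 ± 2.02 CPM (SD, n = 4).

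The genes of ISG15 modification also had log2 fold changes below 0 with intervals that included 0. Isg15 encodes a ubiquitin-like protein that is joined to other proteins after interferon, and lies on chromosome 4 from 156199424 to 156200818 on the minus strand. It stood at 11.1, 10.9, 10.2 and 14.8 CPM with vehicle and 12.1, 10.6, 9.18 and 9.33 with dimethyl succinate. Vehicle replicate 4 was the highest, and the log2 fold change was -0.19 ± 0.142 (SE), or -0.062 without it. Usp18, which removes ISG15 from proteins and blocks the interferon receptor in a feedback loop, stood at 23.1, 25.1, 24.1 and 22.7 CPM and at 22.5, 23.1, 20.3 and 19.6. Dimethyl succinate replicates 3 and 4 were lowest, and the log2 fold change of Usp18 was -0.16 ± 0.088 at an unadjusted p of 0.0999 in edgeR. Herc6, the mouse ligase for ISG15, stood at 9.20 ± 0.767 and 8.60 ± 1.01 CPM (SD, n = 4). It shares 13.7% of its exon bases with Gm45193 on the same strand.

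Among the other antiviral effectors, Rsad2 and Parp14 had the smallest p with all 8 libraries, and Samhd1 had it without vehicle replicate 4, at an unadjusted edgeR p of 0.0068. Parp14, an ADP-ribosyltransferase on chromosome 16 from 35832874 to 35871544, stood at 205, 200, 205 and 193 CPM with vehicle and 206, 226, 218 and 216 with dimethyl succinate. Its groups did not overlap, by a margin under 1 CPM, and overlapped with DESeq2, RLE scaling, library totals, no low-count filter and both FPKM fits. The log2 fold change was 0.11 ± 0.056 (SE) at an unadjusted p of 0.0735 in edgeR. Oasl2 and Parp14 were the 2 members higher without overlap, against 2.5% of all tested genes, and 0 members were lower without overlap, against 2.32%. Rsad2, which encodes viperin, an enzyme that makes a chain-terminating nucleotide, lies on chromosome 12 from 26442746 to 26456452 on the minus strand. Rsad2 stood at 1.98, 2.23, 2.32 and 3.06 CPM and at 1.23, 2.21, 1.71 and 1.53. Vehicle replicate 4 was highest, and dimethyl succinate replicate 2 lay within the vehicle range. The log2 fold change of Rsad2 was -0.51 ± 0.244, or -0.37 without that vehicle library, on 18 to 44 counts.

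Cmpk2, the nucleotide kinase beside Rsad2 on chromosome 12, stood at 3.22 ± 0.999 and 2.95 ± 0.687 CPM (SD, n = 4). Samhd1, which hydrolyses deoxynucleotides, stood at 534, 518, 536 and 424 CPM with vehicle and 484, 490, 494 and 462 with dimethyl succinate. The first 3 vehicle libraries lay above all dimethyl succinate libraries and vehicle replicate 4 below them, so that the log2 fold change was -0.059 ± 0.078 (SE) with it and -0.13 ± 0.045 without it. Bst2, or tetherin, which holds budding viruses on the cell surface, stood at 93.8 ± 7.85 and 89.2 ± 5.44 CPM. Trim30a, a negative regulator of inflammatory signalling, stood at 90.3 ± 7.66 and 92.4 ± 8.15, and Rtp4, a receptor chaperone, at 6.18 ± 0.726 and 6.24 ± 0.352 (SD, n = 4). These 3 had log2 fold changes of -0.073, 0.033 and 0.012, and of -0.015, -0.020 and 0.055 without vehicle replicate 4. Trim30a and Rtp4 changed sign when single libraries were left out, and Rtp4 shares 13.9% of its exon bases with Gm45338.

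Of the remaining members, Ifi35, a protein that binds transcription factors and sensors, stood at 56.9 ± 1.99 CPM with vehicle and 52.5 ± 3.26 with dimethyl succinate (SD, n = 4). Its log2 fold change was -0.12 ± 0.070 (SE), and 16.8% of its exon bases are shared with Gm11626 on the opposite strand, where counting by strand was not stated. Xaf1, a promoter of apoptosis, stood at 11.5 ± 2.21 and 11.2 ± 1.75 CPM. Leaving out vehicle replicate 4 moved its log2 fold change from -0.031 to -0.14. Ifi44 was the rarest member, with 5 to 28 counts per library, at 1.98, 1.34, 0.374 and 0.557 CPM and 1.09, 0.597, 1.04 and 0.767. Its interval of -1.28 to 0.69 on the log2 scale was the widest of the 32. It includes a level 2-fold lower, so a fall of that size is not excluded. Without vehicle replicate 4 the log2 fold change of Ifi44 was -0.51.

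The libraries differed in which members were high. Of 256 member values, 200 lay within 0.25 on the log2 CPM scale of the mean of that member over 8 libraries. No dimethyl succinate or vehicle library was high for all members. Dimethyl succinate replicate 4 and vehicle replicate 3 were the lowest library for 8 members each, and vehicle replicate 4 was the lowest for 7 and the highest for 6. The 6 genes highest in vehicle replicate 4 were Oas1a, Mx1, Gbp3, Isg15, Rsad2 and Bst2. The 7 lowest there were Ddx58, Zbp1, Samhd1, Trim30a, Parp14, Ifi27l2a and Xaf1. Dimethyl succinate replicate 4 was the library most shifted one way: 25 of 32 members lay below their own mean there, and the median distance from it was -0.13 on the log2 scale. In the other 7 libraries that median lay between -0.040 and 0.073. The median log2 fold change of the members was -0.027 without dimethyl succinate replicate 4 and -0.013 without vehicle replicate 1. Summed over the 32 members, levels ran from 2053 to 2361 CPM with vehicle and from 2101 to 2288 with dimethyl succinate, mostly from Gbp2, Samhd1 and Ifi47.

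**Figure D5:**
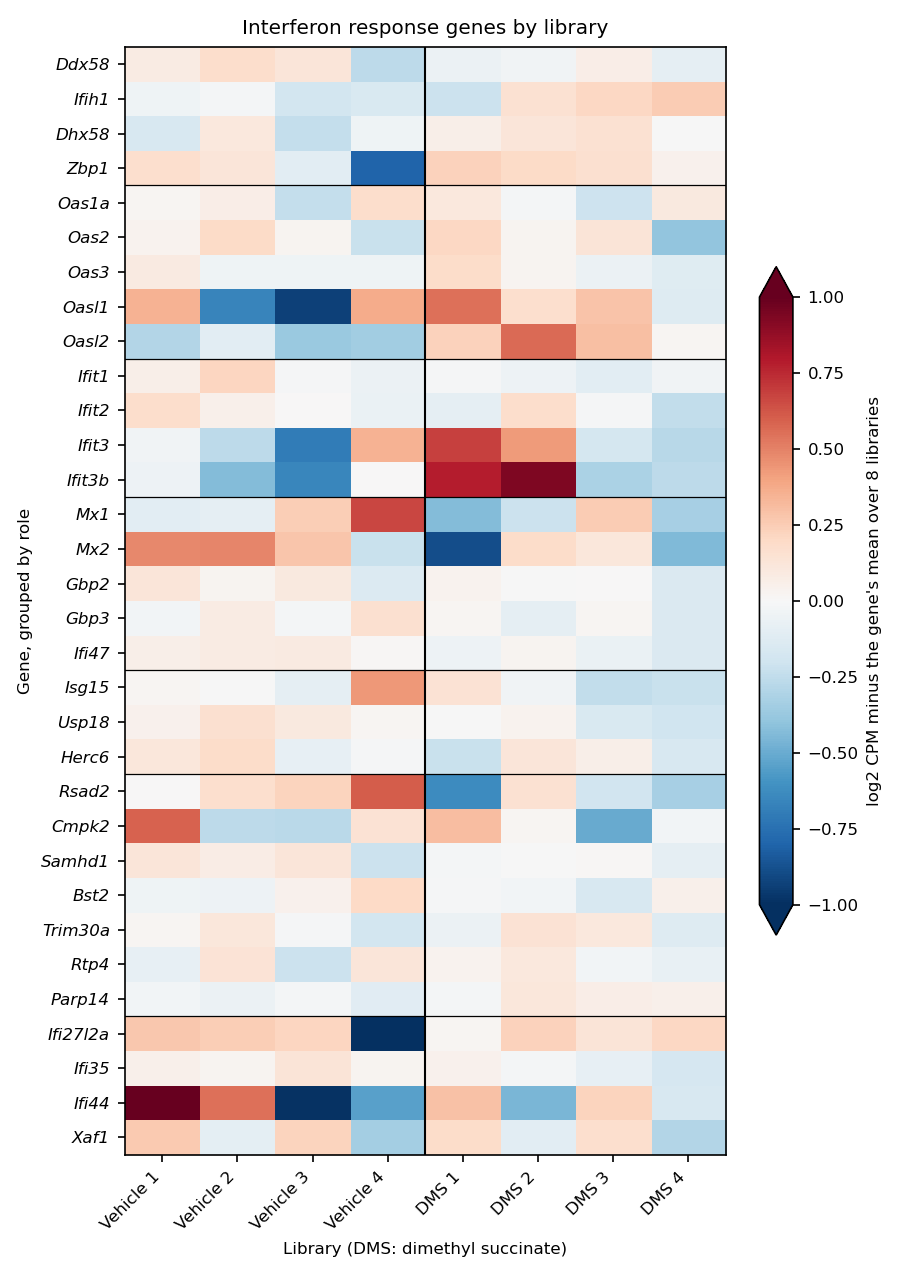
Log2 CPM of each member in each library minus the mean of that gene over 8 libraries, with genes grouped by role and a vertical line between vehicle and dimethyl succinate (DMS). Colours saturate at 1 in either direction. Most cells are pale, vehicle replicate 4 is dark blue for Zbp1 and Ifi27l2a, and dimethyl succinate replicates 1 and 2 are red for Ifit3 and Ifit3b.

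Leaving out vehicle replicate 4 changed the counts. At an unadjusted p below 0.05 the edgeR test then gave 4 members higher with dimethyl succinate, Ifih1, Oasl2, Ifit3 and Ifit3b, or 12.5% against 4.43% of all genes tested. It gave 4 lower, Mx2, Gbp2, Ifi47 and Samhd1, or 12.5% against 4.12%. Of all genes 0.197% then passed an adjusted p of 0.05, and 0 of the 32 members did. The lowest edgeR adjusted p of the 8 was 0.0912 for Oasl2, and the others lay between 0.336 and 0.582. Ddx58, Mx2, Ifi47, Usp18 and Samhd1 were then lower without overlap, where 4.64% of all genes were, and Oasl2 and Parp14 higher without overlap, where 4.99% were. The sizes were small for the abundant genes: log2 fold changes of Gbp2, Ifi47 and Samhd1 were -0.11, -0.13 and -0.13.

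The receptor, its kinases and the factors they switch on gave 0 of 7 genes at an unadjusted p below 0.05. Over all tested genes 2.93% were higher and 2.83% lower at that p. Tyk2 and Ifnar2 had log2 fold changes of 0.13 ± 0.068 and 0.17 ± 0.085 (SE). Of 11 tested adaptors and factors upstream of interferon, 0 passed that p in either direction. Irf7, which amplifies interferon production, stood at 11.9 ± 1.70 and 14.2 ± 1.68 CPM and Tlr7, a receptor for single-stranded RNA, at 2.72 ± 0.925 and 3.82 ± 0.629. Their log2 fold changes of 0.25 and 0.49 were 0.16 and 0.32 without vehicle replicate 4. Of 14 tested negative regulators, Samhd1 among them, 0 passed. Ptpn2, a phosphatase of JAK and STAT proteins, was at -0.17 ± 0.080 and Socs3, a feedback inhibitor, at -0.12 ± 0.064. Once vehicle replicate 4 was left out, 2 of the 14 were lower at that p, where 4.12% of all genes were. Samhd1 was 1 of these 2, at an unadjusted edgeR p of 0.0068.

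A list of further interferon-stimulated genes, drawn from general knowledge, gave 4 higher and 0 lower of 74 tested at an unadjusted p below 0.05, where 2.93% and 2.83% of all genes were, and 0 passed over all genes in edgeR. The median log2 fold change was 0.055, or 0.0095 without vehicle replicate 4, where 3 were higher and 7 lower against 4.43% and 4.12% of all genes. Without that library 2 of the 74 were higher without overlap and 8 lower, where 4.99% and 4.64% of all genes were. The 4 genes named next are the 4 that were higher with all 8 libraries. Ifi213, a nucleic acid binding protein of the PYHIN family, stood at 4.87, 3.37, 3.51 and 3.41 CPM with vehicle and 6.35, 6.38, 4.59 and 4.66 with dimethyl succinate. Vehicle replicate 1 alone reached into the dimethyl succinate range, and the log2 fold change of Ifi213 was 0.54 ± 0.185 (SE). Ifi203, of the same family, was at 0.31 ± 0.137, and Ifit1bl1, an IFIT1-like gene, at 0.55 ± 0.249. Both missed an unadjusted p of 0.05 in edgeR without vehicle replicate 4, Ifi203 at 0.21 with 0.0849 and Ifit1bl1 at 0.45 with 0.124. Rnf213, a large antimicrobial ubiquitin ligase, stood at 248.8, 222, 214 and 202 CPM and at 242, 265, 271 and 250, with vehicle replicate 1 above dimethyl succinate replicate 1. Its log2 fold change was 0.21 ± 0.072.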

How the data were processed

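Per the labels' protocols, RNA was taken up in TRIzol and libraries were made with an mRNA kit. HISAT2 2.0.5 appears in the submitters' processing notes, whereas counting tool, annotation, build and strand setting are not given in the sources used here. All 32 members had the start and end of GENCODE M21, and positions are given on that build, GRCm38. The authors deposited raw counts and FPKM per gene and library, group means (a signal not used here), and log2 fold changes with p-values, per the file headers. The gene length in bases was deposited with them.

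CPM values and tests were computed from the counts with edgeR 4.0.16 in R 4.3.3: filterByExpr, TMM scaling and the robust quasi-likelihood F test on 4 against 4 libraries without covariates, two-sided, with p-values adjusted over 13981 genes. Standard errors were taken from the F statistic. CPM on the log2 scale used a prior count of 2. Alternatives used DESeq2 1.42.0, limma 3.58.1, other scalings and filters, the replicate number as a block, and leaving out single libraries. The edgeR script was tested on simulated data. Between replicates the chi-square per gene was at least 2.11, so no library was a copy of another. The members and lists were chosen with earlier results of these data known. Named genes are all 32 members and, per pathway list, up to 4 with the smallest p and 2 with the highest CPM; Ifnar1, Ifnk, Ifnz and the markers named were added to show the level of ligands, receptor and cell types, and genes named for shared exon bases were found by position. The result for 1 gene of the signalling chain is not reported here.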

Additional observations from a re-analysis of the deposited data

Results flagged for a closer look

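In 64 groups of 4 libraries, 1 for each member and treatment, 3 held a library far from the other 3 by Dixon's gap test, where chance gives about 1 in 20. Ifi27l2a stood at 12.4 CPM in vehicle replicate 4 and at 36.0 to 37.4 in the other vehicle libraries. Samhd1 stood at 424 CPM in the same library and at 518 to 536 in the others. Oas3 stood at 22.2 CPM in vehicle replicate 1 and at 20.3 in each of the others.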

How the results depend on the processing

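Over 19 alternatives 0 members were called, and 586 of 608 member values kept their direction. Over all genes, where 0 were called, DESeq2 called 4, no low-count filter 6, limma-voom with quality weights 26 and the replicate block 1. Members higher at an unadjusted p below 0.05, 1 in the report, numbered 3 with no filter, 2 with the replicate block and 4 with quality weights. Members lower, 0 in the report, numbered 1 with DESeq2 and with limma-trend on log2(FPKM + 1) or log2(FPKM + 0.1), and 6 with quality weights. Over all tested genes, those under that p in either direction numbered 805 of 13981 in the report and 1334 with quality weights. They numbered 987 with the replicate block, 744 with DESeq2, 846 and 841 with the FPKM settings, and 1595 of 27185 with no filter. Members without overlap, 2 in the report, numbered 1 with DESeq2, either FPKM setting, RLE scaling, library totals and no filter. With single libraries left out these counts ran from 0 to 28 over all genes, 28 being without vehicle replicate 4, from 1 to 4 higher, from 0 to 4 lower and from 2 to 7 without overlap. The median log2 fold change ran from -0.090 to -0.013 with a library left out and moved by less than the spread between libraries. Library totals turned Oas2 to 0.0057, and quality weights turned Oas3 to -0.013 and Ifi27l2a to -0.024. Left-out libraries gave -0.094 to 0.048 for Oas1a, -0.082 to 0.11 for Oas2, -0.039 to 0.062 for Oas3, -0.26 to 0.095 for Cmpk2, -0.054 to 0.062 for Rtp4, -0.56 to 0.17 for Ifi44, -0.14 to 0.058 for Xaf1, -0.020 to 0.080 for Trim30a and -0.097 to 0.27 for Ifi27l2a. The cause was not tested. The replicate numbers are shared by label only: deviations of same-numbered libraries correlated at -0.014, 0.011, 0.056 and 0.13, and 2 of 4 vehicle libraries correlated best with their own number. The widest interval was that of Ifi44, with 5 to 28 counts; the parts of depth and of spread between libraries in it were not tested.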

Other observations

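Genes that respond mainly to interferon gamma, GTPases and genes of antigen presentation, were abundant in both groups. Log2 fold changes lay above 0 for 10 of the 30 tested and below 0 for 20, and their median was -0.059, against -0.029 when vehicle replicate 4 was left out. At an unadjusted p below 0.05 in edgeR 0 were higher and 1 lower, where 2.93% and 2.83% of all genes were. That 1 was Gbp6, at 63.3 ± 4.68 CPM with vehicle and 54.9 ± 4.42 with dimethyl succinate (SD, n = 4). Without vehicle replicate 4, 0 were higher and 8 lower, or 8 of 30 where 4.12% of all genes were lower, and 0 passed an adjusted p of 0.05 in edgeR. Gbp4, a guanylate-binding protein, stood at 482, 432, 436 and 337 CPM with vehicle and 373, 400, 399 and 333 with dimethyl succinate. Its log2 fold change was -0.16 ± 0.101 (SE), and -0.26 at an edgeR adjusted p of 0.0734 without that library.

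Ifng itself stood at 146, 180, 158 and 245 CPM with vehicle and 169, 217, 228 and 270 with dimethyl succinate. The log2 fold change of Ifng was 0.28 ± 0.176 (SE), or 0.45 without vehicle replicate 4. Its receptor chains Ifngr1 and Ifngr2 were at 0.13 ± 0.085 and -0.031 ± 0.079, or 0.064 and -0.077 without that library. Of 4 genes listed for interferon gamma and its receptor, 0 passed an unadjusted edgeR p of 0.05 with all 8 libraries. Over all tested genes 2.93% were higher and 2.83% lower at that p. Once vehicle replicate 4 was left out, 1 of the 4 was higher, against 4.43% of all genes, and 0 were lower, against 4.12%. An adjusted p of 0.05 was passed by 0 of the 4. Igtp, an immunity-related GTPase, stood at 689 ± 38.1 and 664 ± 27.9 CPM, and Tap1, a peptide transporter, at 682 ± 18.0 and 684 ± 32.9 (SD, n = 4).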
